A study of Mus musculus with 24 samples.

Results

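The 78 mouse genes described here encode proteins of the mitochondrial ribosome. They were chosen by symbol alone: every protein-coding gene of the deposited table whose Ensembl identifier carries a symbol beginning with Mrpl or Mrps and a digit, 49 of the Mrpl kind and 29 of the Mrps kind, out of 16604 genes used. All 78 annotated genes of that name were in the table, they lie on 17 chromosomes, and all passed the filter on low values. RNA-seq was made from 24 libraries of EMS404, a line of mouse hepatic stellate cells taken from C57Bl6 liver, immortalised with SV40 and expressing human TLR4, so every group carries those 2 changes and stands for 1 line. The 8 groups of 3 libraries were SB431542+TGFb, SR9011+TGFb, CLK8+TGFb, TGFb, SB431542, SR9011, CLK8 and vehicle (DMSO by library name, untreated by label). SB431542 blocks the TGFb receptor kinase, SR9011 is an agonist of the clock repressor REV-ERB alpha, and CLK8 disrupts the pairing of the clock activators CLOCK and BMAL1. Compounds were given for 24 hours before a further 24 hours with TGFb at 10 ng/mL; the sources used here give neither compound doses nor the handling of the groups without TGFb in the second period. The deposited values are FPKM (fragments scaled to transcript length and library size). Of 10 stellate cell markers with a value, 8 had a median of at least 1 FPKM, while Des and Reln, at medians of 0.17 and 0.0 FPKM, did not, and the 4 hepatocyte markers together reached at most 0.25 FPKM. The macrophage marker Cd68 had a median of 1.65 FPKM with Ptprc at or near 0, 3 endothelial markers summed to at most 0.43 FPKM, and 3 cholangiocyte markers (mainly Krt7 and Krt19) summed to between 1.27 and 10.0 FPKM; their part in the results was not tested.

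The mitochondrial ribosome translates the few messenger RNAs of the mitochondrial genome, all of which encode core subunits of the respiratory chain and ATP synthase. Its RNAs are mitochondrial, whereas its proteins are encoded in the nucleus, made in the cytosol and imported. It has a large subunit, which forms peptide bonds, and a small subunit, which reads the messenger; each holds proteins with bacterial homologs and proteins found only in mitochondria. By subunit, 51 of the 78 belong to the large subunit (30 bacterial homologs and 21 mitochondria-specific proteins, among them Mrps18a and Mrps30 in spite of their names) and 26 to the small subunit (16 and 10). The remaining gene, Mrps36, encodes a protein now assigned to the 2-oxoglutarate dehydrogenase complex. Transcription factors linked to such nuclear genes in mammals include NRF1, the ETS factor GABP and YY1.

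Promoter windows of 300 bases (250 before and 50 after the annotated start, RefSeq, build GRCm38.p6) were found for 69 of the 78 genes and were searched on both strands. The NRF1 letters GCGCANGCG stood in 16 of the 69 (23.2%, against 16.2% of 8993 tested genes with a window), the ETS letters CCGGAAGT in 12 (17.4% against 9.8%) and the YY1 letters AAGATGGCG in 8 (11.6% against 3.8%). The E-box CACGTG, to which CLOCK and BMAL1 bind, stood in 5 (7.2% against 12%), namely Mrpl2, Mrpl20, Mrpl36, Mrpl37 and Mrps18c, and the REV-ERB or ROR element TAGGTCA in Mrpl53 alone (1.4% against 2.2%). A match is a description of letters and no evidence of binding. The windows of Mrps6, Mrps18a and Mrps18b, which had the widest ranges of group means, and of Mrps21, which fell most with TGFb, are shown. Whether these letters bear on the differences was not tested. The matched letters are in capitals: Mrps18a (chr17:46110754-46111053, plus strand, YY1 letters from base 262), Mrps18b (chr17:35916391-35916690, minus strand, NRF1 letters from base 27), Mrps21 (chr3:95871465-95871764, minus strand, NRF1 letters from base 161) and Mrps6 (chr16:92058086-92058385, plus strand, no match), with bases counted from the 5′ end.
Mrps18a: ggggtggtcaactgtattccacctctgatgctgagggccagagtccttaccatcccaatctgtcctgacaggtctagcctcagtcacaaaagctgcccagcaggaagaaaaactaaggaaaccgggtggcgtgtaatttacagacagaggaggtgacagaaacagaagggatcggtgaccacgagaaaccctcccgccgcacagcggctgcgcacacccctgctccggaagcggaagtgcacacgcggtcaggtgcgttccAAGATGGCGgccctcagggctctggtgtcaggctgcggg
Mrps18b: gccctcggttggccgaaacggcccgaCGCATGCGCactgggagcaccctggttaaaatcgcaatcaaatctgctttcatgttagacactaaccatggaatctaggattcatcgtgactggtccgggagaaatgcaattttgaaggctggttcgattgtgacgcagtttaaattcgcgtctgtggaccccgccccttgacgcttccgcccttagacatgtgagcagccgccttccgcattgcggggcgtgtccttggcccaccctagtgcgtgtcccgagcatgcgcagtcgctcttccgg
Mrps21: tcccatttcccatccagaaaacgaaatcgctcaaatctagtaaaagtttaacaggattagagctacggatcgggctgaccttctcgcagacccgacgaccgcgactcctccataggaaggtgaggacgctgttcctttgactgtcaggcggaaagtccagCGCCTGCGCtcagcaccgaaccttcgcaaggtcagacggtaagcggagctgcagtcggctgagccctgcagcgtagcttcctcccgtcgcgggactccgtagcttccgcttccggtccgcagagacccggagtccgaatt
Mrps6: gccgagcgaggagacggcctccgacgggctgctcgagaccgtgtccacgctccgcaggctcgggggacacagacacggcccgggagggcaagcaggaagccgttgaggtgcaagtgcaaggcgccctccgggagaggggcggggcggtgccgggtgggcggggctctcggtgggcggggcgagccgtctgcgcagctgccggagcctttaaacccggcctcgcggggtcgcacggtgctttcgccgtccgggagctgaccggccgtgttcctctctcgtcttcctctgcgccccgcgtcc
The Mrps18b window, set by the RefSeq start, lies wholly upstream of the gene interval given below, which comes from another annotation.

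Transcript levels of the 78 genes covered a 36.4-fold range. The means over 24 libraries ran from 4.63 FPKM for Mrps25 to 168 FPKM for Mrpl52, with a median of 40.5 FPKM; 6 genes lay under 10 FPKM and 10 over 100 FPKM. After Mrpl52, a mitochondria-specific large-subunit protein, the highest means were those of Mrpl33 (164 FPKM), Mrpl14 (144 FPKM), Mrpl13 (124 FPKM) and Mrpl18 (123 FPKM), all bacterial homologs of the large subunit. After Mrps25, the lowest were Mrpl19 (6.97 FPKM), Mrpl35 (7.03 FPKM), Mrpl17 (7.50 FPKM) and Mrpl41 (8.30 FPKM). Mrps25 shares 4590 exon bases with the measured gene Nr2c2. In all, 21 of the 78 share exon bases with another measured gene, and whether counting used strand is not given, so that reads of such genes could be split between them. Among genes named in the results, these are Mrpl9, Mrpl13, Mrpl14, Mrpl18 (with Tcp1), Mrpl19 (with Gcfc2), Mrpl27 (with Eme1), Mrpl36, Mrpl47 (with Actl6a and Ndufb5), Mrpl48 (with Rab6a), Mrpl49 (with Syvn1), Mrps6, Mrps7, Mrps11 (with Mrpl46), Mrps25 and Mrps34 (with Mapk8ip3 and Nme3), and their values are uncertain to that extent. Within a group the median coefficient of variation of a gene was 4.8%. The ratio of the highest to the lowest group mean had a median of 1.31 and ran from 1.1 for Mrpl12, a stalk protein of the large subunit, to 2.25 for Mrps6, a bacterial homolog of the small subunit. Only Mrps6 reached a ratio of 2 between group means, and 9 genes reached 1.5, namely Mrpl13, Mrpl14, Mrpl2, Mrpl23, Mrpl42, Mrps18a, Mrps18b, Mrps21 and Mrps6.

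Summed over genes, the module had its highest group mean in CLK8 libraries, at 4340.5, 4102.3 and 4421.7 FPKM, against 3958.1, 3918.6 and 3901.4 FPKM in vehicle libraries. SR9011 libraries were spread more widely, at 4383.8, 3689.7 and 4052.6 FPKM, with replicate 2 below all vehicle libraries. Large-subunit transcripts summed to 2879.8 ± 111 FPKM in CLK8 libraries, against 2702.7 ± 6.61 FPKM in vehicle libraries (SD, n = 3 each). Small-subunit transcripts summed to 1359.4 ± 57.8 FPKM in CLK8 libraries, against 1177.8 ± 22 FPKM in vehicle libraries (SD, n = 3 each), and the 3 CLK8 sums, from 1301.9 to 1417.4 FPKM, lay above all 3 vehicle sums, from 1158.7 to 1201.8 FPKM. Relative to the large subunit, small-subunit transcripts made a ratio of 0.464 to 0.480 in CLK8 and 0.429 to 0.443 in vehicle libraries, and of 0.459 to 0.469 in CLK8+TGFb and 0.428 to 0.447 in TGFb libraries, with no overlap in either pair. Without Mrps6 those ratios were 0.412 to 0.425 in CLK8 and 0.395 to 0.406 in vehicle libraries, and 0.421 to 0.429 in CLK8+TGFb and 0.403 to 0.420 in TGFb libraries, again without overlap. All 78 genes made 0.758 to 0.791% of the summed FPKM of CLK8 libraries and 0.700 to 0.729% of vehicle libraries. Their share was 0.668 to 0.682% in SR9011+TGFb and 0.700 to 0.712% in TGFb libraries, lower in all 3. Their summed FPKM was not lower, at 3702.1 to 3807.7 in SR9011+TGFb and 3680.6 to 3721.3 in TGFb libraries. Cytosolic ribosomal protein transcripts summed to 118568.4 to 129690.4 FPKM in SR9011+TGFb and 90849.5 to 93958.6 FPKM in TGFb libraries. These sums were described and not tested. FPKM is relative to library size, and all genes together summed to between 503920 and 610024 FPKM per library, so the sums are no absolute amounts. In bulk RNA a change in some of the cells and a change in all of them cannot be told apart.

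**Figure D1:**
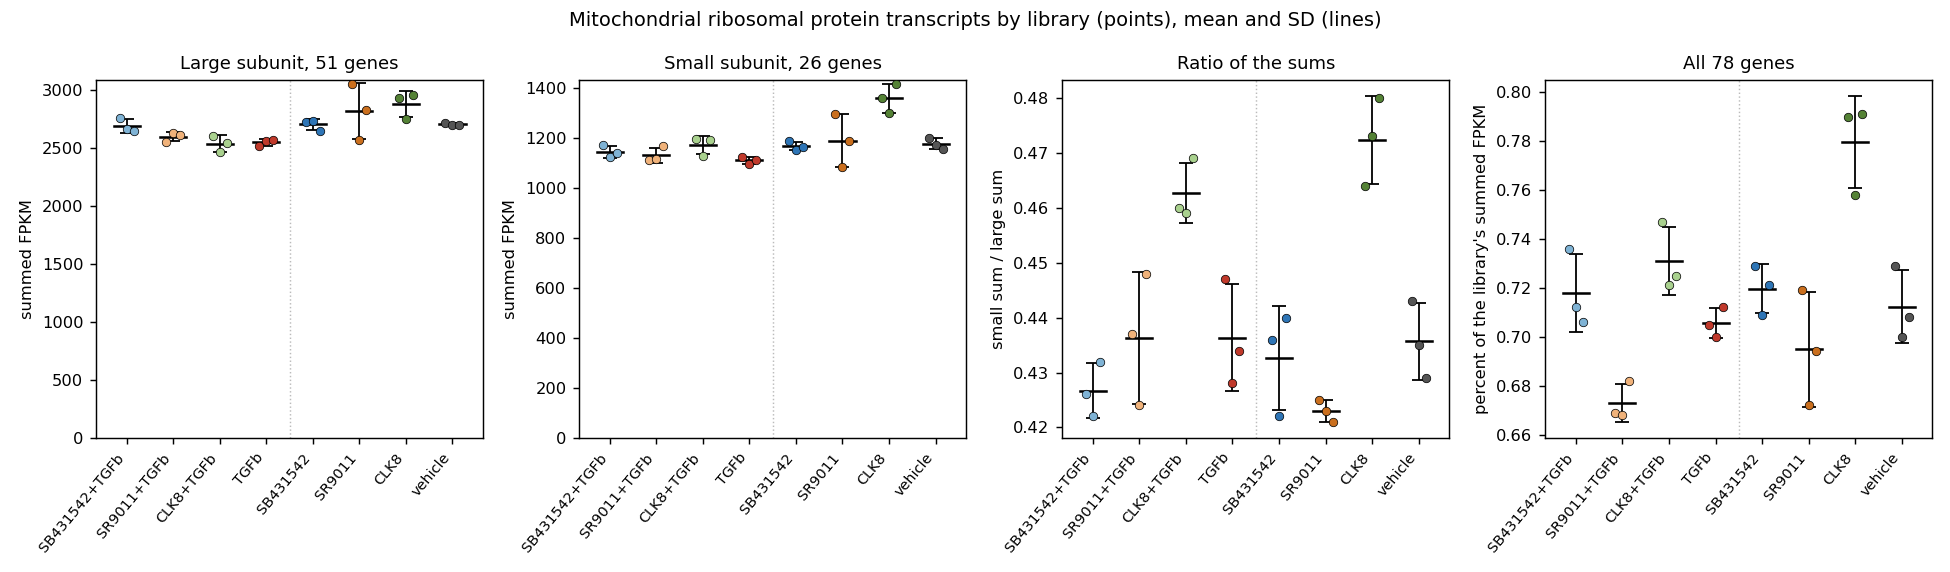
Summed FPKM of large-subunit genes, of small-subunit genes, their ratio, and the share of all 78 genes in the library's summed FPKM (vertical axes; percent in the last panel), by group (horizontal axis). Points are libraries and lines the mean and SD of 3; the first 2 panels start at 0 and the others do not. The ratio lies between 0.459 and 0.480 in the 6 libraries with CLK8 and between 0.421 and 0.448 in the other 18. Without Mrps6 (not drawn) these 2 sets overlap, with 0.412 to 0.425 in CLK8 and 0.403 to 0.420 in TGFb libraries.

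The 3 SR9011 libraries differed more among themselves than those of other groups. Their median coefficient of variation over the 78 genes was 8.2%, and between 3.9 and 5.0% in the other 7 groups. SR9011 replicate 1 lay on average 0.0985 log2 units above its group mean over the 78 genes and replicate 2 lay −0.104 from it, so the counts of members and of related lists for SR9011 alone are given also without each library. Differences were tested with limma on log2(FPKM + 1) over 11297 genes, with p-values adjusted over all of them and a threshold of 0.05 for calling a gene higher or lower; each difference is the first-named group minus the second, on that scale, with its standard error. Over 7 comparisons, 68 of the 78 genes were called at least once, beside 92.9% of all genes tested. The 10 never called were Mrps18c, Mrps11, Mrps14, Mrps34, Mrps35, Mrpl12, Mrpl22, Mrpl40, Mrpl53 and Mrpl55. The 9 called in 5 or more were Mrpl54, Mrps6, Mrpl27, Mrps18a, Mrpl23, Mrps15, Mrps18b, Mrpl45 and Mrpl36. Nothing says that the 3 libraries of a group came from separate cultures, so p-values measure the spread between libraries.

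**Figure D2:**
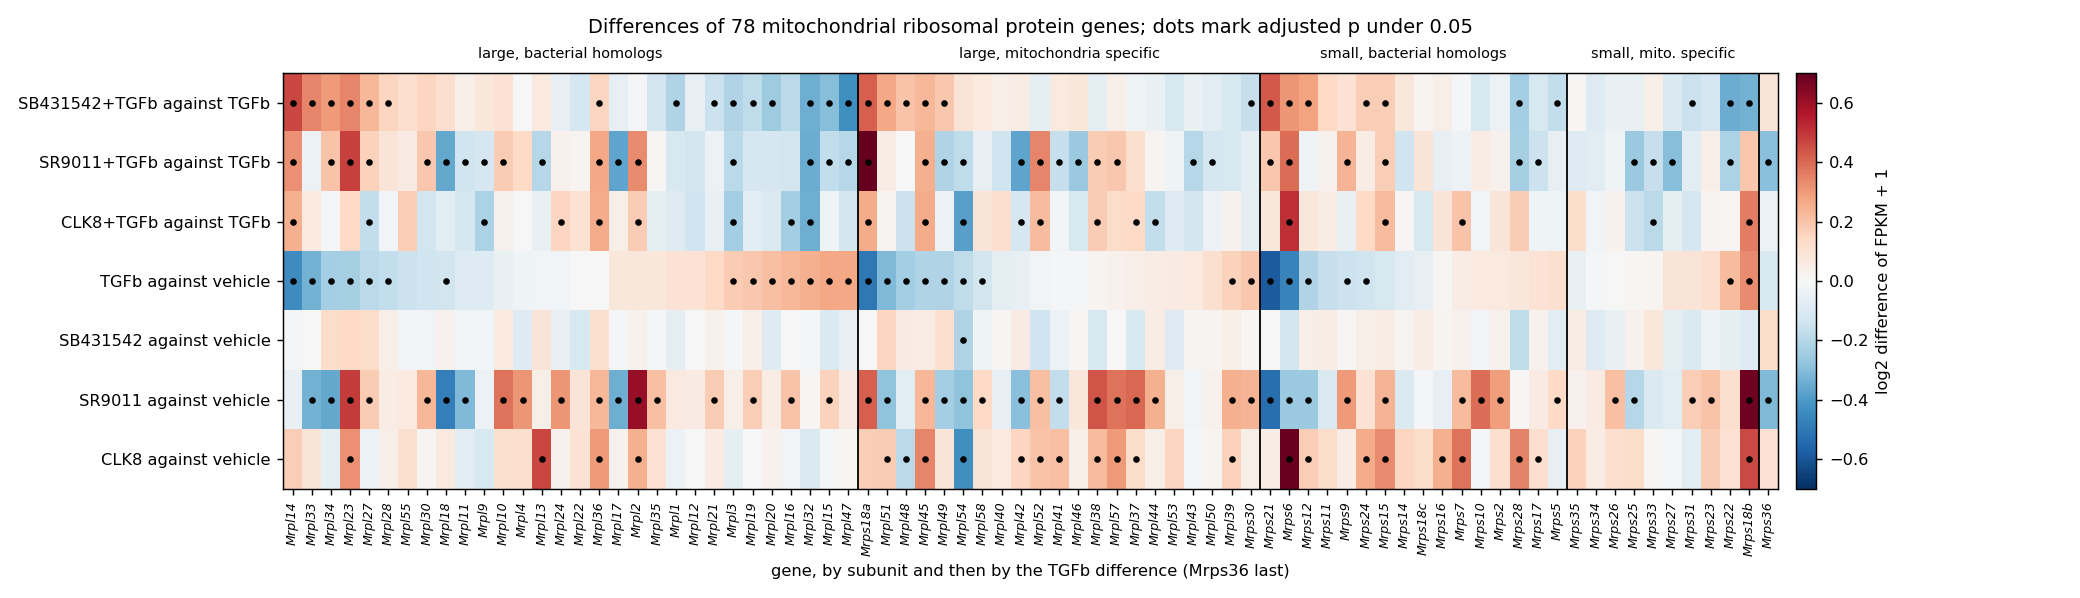
Log2 differences (colour) of the 78 genes (columns, by subunit and then by their TGFb difference) in 7 comparisons (lines of cells); dots mark genes with an adjusted p under 0.05. In the TGFb against vehicle line 11 genes are dotted higher and 19 lower, and in the SB431542 against vehicle line 1 gene is dotted.

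TGFb, the main fibrogenic signal to stellate cells, moved a minority of the genes, and by less than 1.5-fold in every case. Against vehicle, 11 of 78 were called higher (14.1%) and 19 lower (24.4%), beside 20.5% higher and 34.4% lower of all genes tested, so the share called was below that of the table. The median difference of the 78 was −0.005, against −0.049 over all genes tested. With values rescaled to TPM (each library rescaled to the same sum) the split became 21 higher and 12 lower, and with quantile normalization 16 and 13, so no direction holds for the whole module. The 5 highest and 5 lowest called genes kept their direction under both. Without vehicle replicate 2 the number higher was 7.

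Mrps21, a bacterial homolog of the small subunit (ENSMUSG00000054312, chr3:95862634-95871519), fell most. It had 94.2, 82.6 and 84.3 FPKM in TGFb libraries, against 121, 135 and 134 FPKM in vehicle libraries. Every TGFb value lay below every vehicle value, a difference of −0.58 ± 0.075 (limma adjusted p = 8.49e-07). Mrps18a, in the large subunit (ENSMUSG00000023967, chr17:46110986-46128910), had 45.1, 41.9 and 46.0 FPKM in TGFb and 65.5, 62.1 and 61.2 FPKM in vehicle libraries, with a difference of −0.50 ± 0.073 (limma adjusted p = 4.66e-06). Mrps6 fell by 0.47, Mrpl14 by 0.44 and Mrpl33 by 0.33; the last 2 are large-subunit proteins with bacterial homologs. The largest rise was that of Mrps18b (ENSMUSG00000024436, chr17:35910379-35916389), a small-subunit paralog of Mrps18a, with 42.9, 38.1 and 41.8 FPKM in TGFb and 33.7, 30.5 and 32.9 FPKM in vehicle libraries (0.33 ± 0.086, limma adjusted p = 0.00244). Mrpl15 and Mrpl47 (both 0.27), Mrpl32 (0.25) and Mrpl16 (0.23), bacterial homologs of the large subunit, also rose. Of the members fixed by role, Mrps12, the homolog of a bacterial decoding-site protein, fell by 0.21, Mrpl58, which frees stalled ribosomes, fell by 0.13 (a call lost under 12 of 33 alternatives), Mrps30 of the large subunit rose by 0.19, and Mrpl12 (0.10) and Mrps36 (−0.11) did not pass the test. Mrpl12 passed it under TPM (0.18) and quantile normalization (0.16), and Mrps36 without vehicle replicate 3 (−0.15) or SB431542+TGFb replicate 1 (−0.11). Among bacterial homologs of the small subunit 5 of 16 fell and 0 rose, and of the 10 mitochondria-specific small-subunit genes 2 rose and 0 fell. In the large subunit 7 of 30 bacterial homologs rose and 7 fell, and of 21 mitochondria-specific genes 2 rose and 7 fell. Across the 78 genes the TGFb difference and the mean level had a Spearman rho of −0.45 (the same over 11297 genes was −0.0), so that abundant members tended to be the lower ones; genes are not independent replicates and this is a description of these libraries.

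SB431542 without added TGFb left the module near vehicle. No gene was called higher and 1 lower, beside 11.9% higher and 5.05% lower of all genes tested, and 6 of the 78 had an unadjusted p under 0.05 in limma. That gene was Mrpl54, a mitochondria-specific large-subunit protein, with 123, 123 and 111 FPKM in SB431542 and 137, 130 and 146 FPKM in vehicle libraries (−0.21 ± 0.069, limma adjusted p = 0.0425). The groups did not overlap, but the call was lost under 10 of 33 alternative settings.

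With TGFb present, the genes that TGFb had moved most lay nearer their vehicle levels when SB431542 was added. In SB431542+TGFb against TGFb, 17 of 78 were called higher (21.8%) and 14 lower (17.9%), beside 38.3% higher and 21.4% lower of all genes; TPM gave 14 and 21, and quantile normalization 13 and 23. The number lower was 8 without TGFb replicate 3 or without SB431542+TGFb replicate 2. This comparison shares the TGFb libraries with the one against vehicle, so opposite differences in the 2 are not independent. Mrpl14 had 153, 150 and 162 FPKM in SB431542+TGFb and 101, 119 and 115 FPKM in TGFb libraries (0.47 ± 0.077, limma adjusted p = 1.45e-05), while vehicle libraries had 140, 158 and 156 FPKM. Mrps21 (0.43), Mrps18a (0.42), Mrpl23 (0.34) and Mrpl33 (0.34) were also higher. The genes lower by most were Mrpl47 (−0.43), Mrps22 (−0.35), Mrpl32 (−0.34), Mrps18b (−0.33) and Mrpl15 (−0.30); Mrps22 is a mitochondria-specific small-subunit protein. Mrpl47 had 15.4, 15.7 and 16.1 FPKM in SB431542+TGFb and 24.3, 21.2 and 19.3 FPKM in TGFb libraries, without overlap.

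SR9011 moved the largest number of members among the 4 treatments set against vehicle, as it did over all genes tested (69.1% called in either direction). Of 78, 33 were called higher (42.3%) and 15 lower (19.2%), beside 40.7% higher and 28.3% lower of all genes, and the median difference was 0.063 both for the 78 and for all genes tested. The split depended on scaling, at 22 higher and 18 lower with TPM and 25 and 20 with quantile normalization, and on the libraries, at 24 and 18 without SR9011 replicate 1, 33 and 14 without replicate 2 and 29 and 13 without replicate 3. The called differences of the 5 highest and 5 lowest members named next held in the 33 alternatives run. Mrps18b had 54.2, 48.7 and 54.2 FPKM in SR9011 and 33.7, 30.5 and 32.9 FPKM in vehicle libraries (0.68 ± 0.086, limma adjusted p = 2.96e-07). Mrpl2 (ENSMUSG00000002767, chr17:46646229-46650139), the large-subunit protein next to the peptidyl transferase centre in bacteria, had 110, 90.2 and 94.9 FPKM in SR9011 and 67.1, 61.4 and 63.3 FPKM in vehicle libraries (0.61 ± 0.060, limma adjusted p = 5.08e-09). All SR9011 values of both genes lay above all vehicle values. Mrpl23, a protein of the peptide exit tunnel in bacteria, was higher by 0.49, Mrpl38 by 0.44 and Mrps18a by 0.42.

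Other members fell with SR9011. Mrps21 had 98.6, 81.2 and 90.5 FPKM in SR9011 and 121, 135 and 134 FPKM in vehicle libraries (−0.53 ± 0.075, limma adjusted p = 1.48e-06). Mrpl18 had 102, 91.9 and 97.1 FPKM in SR9011 and 146, 135 and 127 FPKM in vehicle libraries (−0.48 ± 0.053, limma adjusted p = 2.80e-08). Neither gene's groups overlapped. Mrpl34 fell by 0.36, Mrpl17 by 0.34 and Mrpl33 by 0.33, all bacterial homologs of the large subunit. Mrps36, the gene outside the ribosome, fell by 0.31 to 35.4, 35.2 and 39.0 FPKM in SR9011 libraries, against 46.1, 48.1 and 42.5 FPKM in vehicle libraries (limma adjusted p = 8.48e-06). Mrps12 fell by 0.26, Mrps30 was higher by 0.24, and Mrpl58, a peptidyl-tRNA hydrolase of the large subunit, was higher by 0.14, a call lost under 7 of 33 alternatives.

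With TGFb present, SR9011 lowered more members than it raised. In SR9011+TGFb against TGFb, 17 of 78 were called higher (21.8%) and 23 lower (29.5%), beside 36.8% higher and 24% lower of all genes; the median difference was −0.043 for the 78 and 0.051 for all genes. With TPM the split was 9 higher and 38 lower and with quantile normalization 16 and 35, so the lower side was the larger under each scaling. The margin narrowed without single libraries, to 16 higher and 17 lower without TGFb replicate 3. The split was 15 and 17 without SR9011+TGFb replicate 1, and 14 and 17 without SR9011+TGFb replicate 3. The largest difference was that of Mrps18a, with 66.6, 79.8 and 72.3 FPKM in SR9011+TGFb and 45.1, 41.9 and 46.0 FPKM in TGFb libraries (0.70 ± 0.073, limma adjusted p = 2.02e-08). Mrpl23 (0.48), Mrps6 (0.39), Mrpl52 (0.34) and Mrpl2 (0.33) were higher as well. Mrpl42, a mitochondria-specific large-subunit protein, had 68.6, 67.0 and 72.0 FPKM in SR9011+TGFb and 90.8, 90.4 and 88.5 FPKM in TGFb libraries (−0.37 ± 0.046, limma adjusted p = 2.67e-07). Mrpl17 (−0.37), Mrpl18 (−0.36), Mrpl32 (−0.35) and Mrps27 (−0.30) were lower, Mrps27 being a mitochondria-specific small-subunit protein with an RNA-binding fold. Mrpl18 and Mrpl17 were thus lower, and Mrps18a, Mrpl23 and Mrpl2 higher, with SR9011 in both settings, and these 2 comparisons share no library.

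With CLK8 the share of members called higher was near that of all genes tested, and few were called lower. Against vehicle, 22 of 78 were called higher (28.2%) and 2 lower (2.6%), beside 30.3% higher and 13.6% lower of all genes, and the median difference was 0.099 for the 78 and 0.065 for all genes. After rescaling to TPM 27 were higher and 2 lower, and after quantile normalization 18 and 5. The counts were 15 and 2 without CLK8 replicate 3, and 31 and 1 without CLK8 replicate 2. In the small subunit the 22 called higher were 8 of 16 bacterial homologs and 1 of 10 mitochondria-specific genes. In the large subunit they were 4 of 30 bacterial homologs and 9 of 21 mitochondria-specific genes. Mrps6 (ENSMUSG00000039680, chr16:92058270-92112227) moved furthest, with 151, 147 and 161 FPKM in CLK8 and 103, 89.3 and 91.2 FPKM in vehicle libraries (0.69 ± 0.068, limma adjusted p = 2.23e-08). Mrpl13 (ENSMUSG00000022370, chr15:55534094-55557748), a bacterial homolog of the large subunit, had 169, 170 and 161 FPKM in CLK8 and 120, 119 and 119 FPKM in vehicle libraries (0.47 ± 0.055, limma adjusted p = 2.96e-07). In neither gene did the groups overlap. Mrps18b (0.46), Mrps7 (0.38) and Mrps28 (0.35) were next, the last 2 being small-subunit proteins with bacterial homologs. Mrpl54 fell by 0.43, to 100, 96.8 and 110 FPKM in CLK8 libraries, against 137, 130 and 146 FPKM in vehicle libraries (limma adjusted p = 2.84e-05). Mrpl48, with 28.4, 29.1 and 30.6 FPKM in CLK8 and 30.1, 35.5 and 35.8 FPKM in vehicle libraries, had overlapping groups and only just passed (−0.19 ± 0.079, limma adjusted p = 0.0496).

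In CLK8+TGFb against TGFb, 13 of 78 were called higher (16.7%) and 9 lower (11.5%), beside 27.7% higher and 13.3% lower of all genes; TPM gave 19 and 7, and quantile normalization 11 and 14. Without TGFb replicate 1 there were 8 higher and 5 lower, and the number lower was 4 without CLK8+TGFb replicate 2 and 5 without its replicate 3. Mrps6 had 96.1, 94.4 and 102 FPKM in CLK8+TGFb and 66.9, 65.2 and 71.8 FPKM in TGFb libraries (0.51 ± 0.068, limma adjusted p = 2.67e-06). Mrps18b was higher by 0.36, and Mrpl45, which anchors the ribosome to the inner membrane, Mrpl36 and Mrps18a each by 0.26. Mrpl54 had 89.5, 91.4 and 96.7 FPKM in CLK8+TGFb and 116, 127 and 121 FPKM in TGFb libraries (−0.38 ± 0.069, limma adjusted p = 0.000118). Mrpl32 (−0.34), Mrpl3 (−0.24), Mrpl16 (−0.24) and Mrpl9 (−0.22), bacterial homologs of the large subunit, were lower. Mrps6 and Mrps18b were therefore higher, and Mrpl54 lower, with CLK8 in both settings, which share no library.

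**Figure D3:**
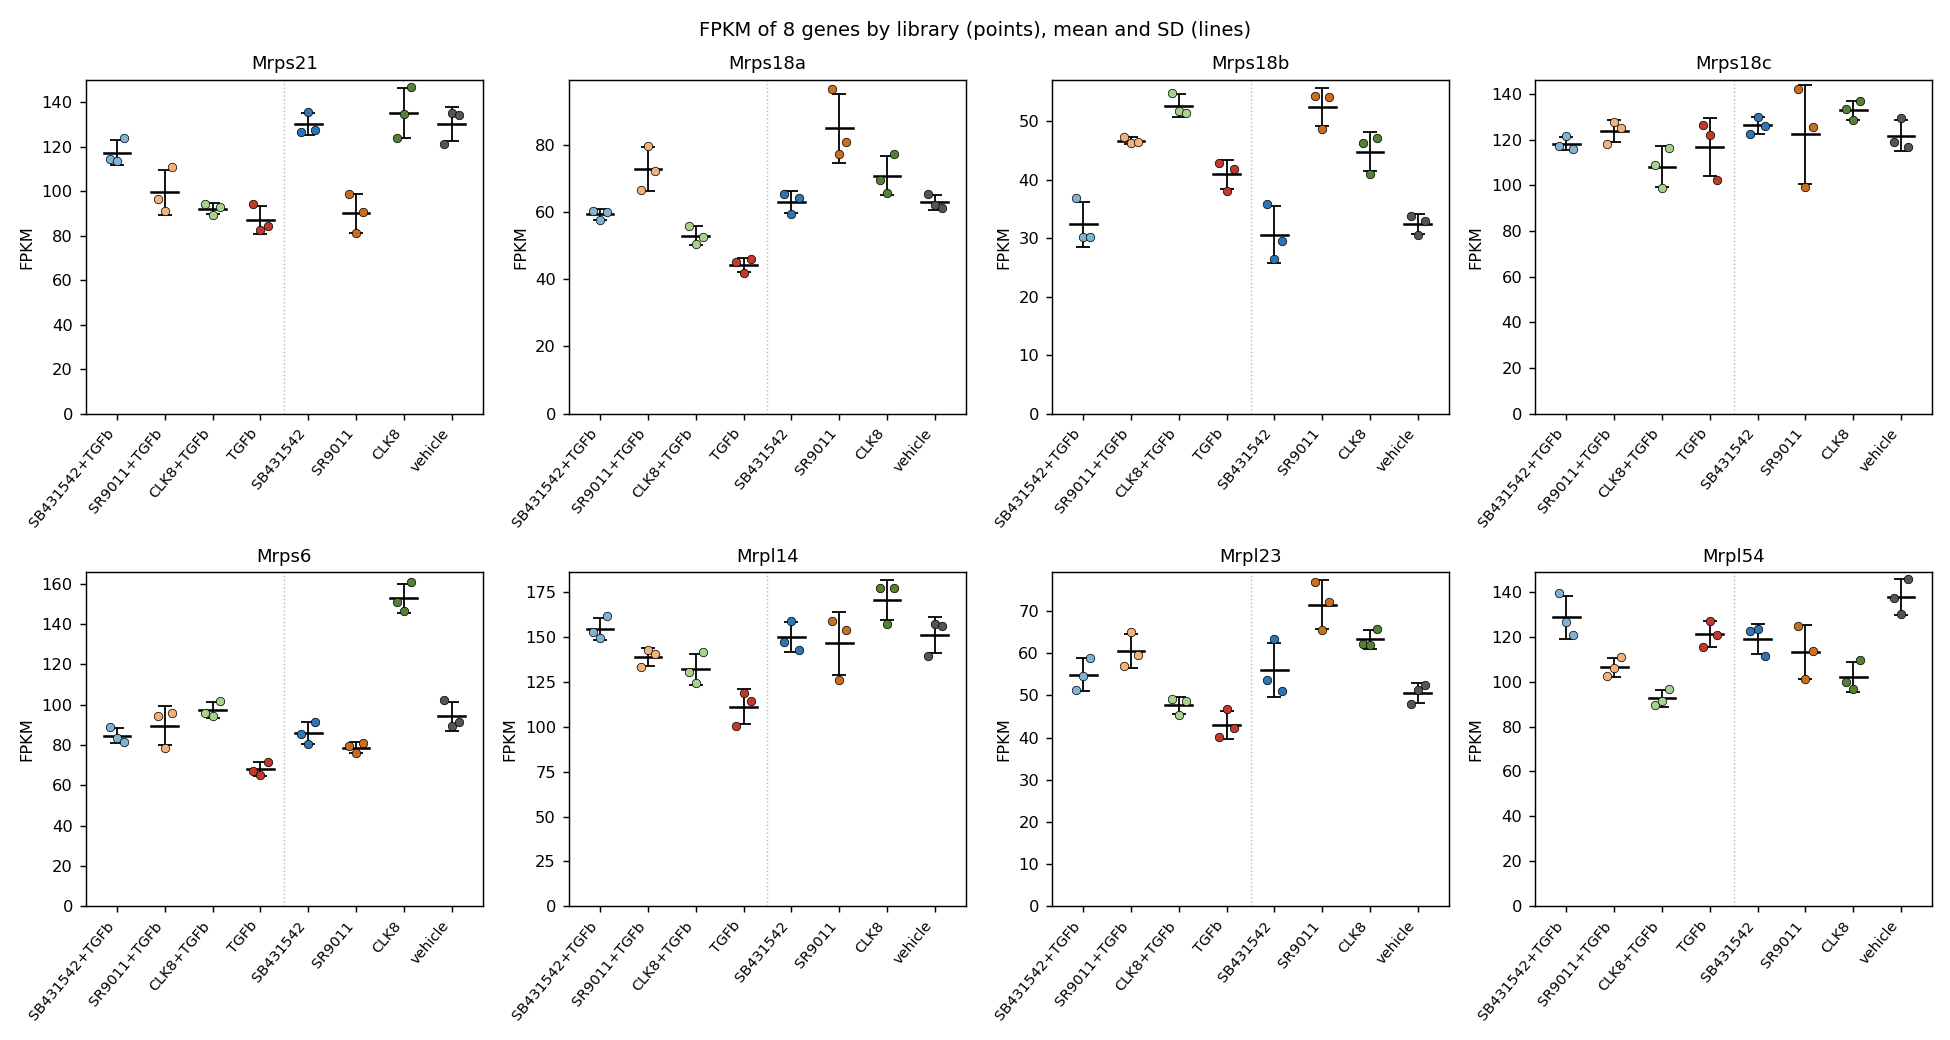
FPKM (vertical axes, from 0) of 8 genes in the 8 groups (horizontal axes); points are libraries, lines the mean and SD of 3, and the dotted line parts groups with TGFb from groups without. Mrps6 stands at 147 to 161 FPKM in CLK8 libraries, above all others; Mrps18a is lowest in TGFb libraries, Mrps18b higher there than in vehicle libraries, and Mrps18c shows no called difference.

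The 3 Mrps18 paralogs, whose proteins descend from 1 bacterial small-subunit protein, behaved differently. Mrps18c, the one that keeps the bacterial position, was called in none of the 7 comparisons, with group means between 108 and 133 FPKM. Mrps18a ran from 44.3 ± 2.18 FPKM in TGFb to 85.1 ± 10.3 FPKM in SR9011 libraries and Mrps18b from 30.6 ± 4.86 FPKM in SB431542 to 52.6 ± 1.93 FPKM in CLK8+TGFb libraries (SD, n = 3 each). In TGFb libraries Mrps18a was lower and Mrps18b higher than in vehicle libraries, whereas in SR9011 libraries both were higher. Ppp1r10, which starts 45 bases from Mrps18b on the other strand, did not move with it: its difference was 0.01 with TGFb, −0.19 with SR9011 (called lower) and −0.06 with CLK8.

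Mrps6 shares 159 exon bases with Slc5a3, which encodes a sodium and myo-inositol cotransporter. Slc5a3 had 20.03, 21.5 and 19.8 FPKM in CLK8 and 9.03, 8.36 and 8.23 FPKM in vehicle libraries, a difference of 1.17, beside 0.69 for Mrps6. In TGFb libraries it had 4.26, 3.75 and 3.94 FPKM, a difference from vehicle of −0.94, beside −0.47 for Mrps6. With TGFb present the differences of Slc5a3 were 0.77 for SB431542, 1.23 for SR9011 and 1.08 for CLK8, and those of Mrps6 were 0.31, 0.39 and 0.51. The 2 genes thus had the same sign in each of these 5 comparisons; the part of shared reads or of a shared start in this was not tested. Mrpl14 and Tmem63b, with 106 exon bases in common, both fell with TGFb (−0.44 and −0.14), but with SR9011 Tmem63b rose by 0.37 while Mrpl14 stood at −0.05. Mrpl13 shares 330 exon bases with Mtbp, which was not called with CLK8 (0.12, beside 0.47 for Mrpl13). Tcp1, which overlaps Mrpl18, was called lower with SR9011 (−0.17, beside −0.48 for Mrpl18), and both stood at −0.36 in SR9011+TGFb against TGFb. With TGFb alone Tcp1 rose (0.21) and Mrpl18 fell (−0.13). Mrpl47 and Actl6a were both called in SB431542+TGFb against TGFb (−0.43 and −0.24) and with TGFb (0.27 and 0.16). Ndufb5, which also overlaps Mrpl47, stood at 0.19 and −0.15 there. Mrpl36 and Ndufs6 were both called higher in CLK8+TGFb against TGFb (0.26 and 0.36), but with TGFb alone Ndufs6 fell (−0.33) and Mrpl36 did not. Of 23 overlapping pairs, both genes were called in 7 with SR9011, 6 with the same sign. In that comparison 69.1% of all genes were called in either direction. With TGFb both were called in 7, 5 with the same sign, where 54.9% of all genes were called. With CLK8 both were called in 3, 2 with the same sign, and with SB431542 in 0. Against TGFb, both were called in 9 with SB431542+TGFb (6 with the same sign) and in 5 with SR9011+TGFb (all 5). In CLK8+TGFb against TGFb both were called in 4, 2 with the same sign. The part of shared reads was not tested.

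Interactions asked whether the TGFb difference changed in the presence of a compound, as (compound+TGFb minus compound) minus (TGFb minus vehicle). With SB431542, 8 of 78 members were called higher and 5 lower, beside 21.5% and 12.8% of all genes (TPM, 6 and 9; quantile normalization, 6 and 7); a positive value means that TGFb lowered the gene less, or raised it more, with the compound. Mrpl14 (0.49 ± 0.11, limma adjusted p = 0.00142), Mrps6 (0.45) and Mrps21 (0.43) led the positive side, and Mrpl47 (−0.37), Mrpl32 (−0.33) and Mrps22 (−0.28) the negative side. The 13 calls fell to 6 without vehicle replicate 3, 7 without SB431542 replicate 3, and 8 without SB431542+TGFb replicate 3 or without TGFb replicate 1. The median absolute TGFb difference of the 78 genes was 0.041 with SB431542 and 0.104 without it. With SR9011, 7 were called higher and 24 lower, beside 16.6% and 15.3% of all genes, and the lower side was the larger under TPM (7 and 27) and quantile normalization (7 and 26) and without any single SR9011 library (8 and 15, 5 and 29, and 5 and 16). The median interaction was −0.127 for the 78 and 0.008 for all genes. Mrps21 (0.72 ± 0.11, limma adjusted p = 2.28e-05), Mrps6 (0.65) and Mrpl34 (0.56) were called higher, and Mrps18b (−0.49), Mrpl39 (−0.36) and Mrpl32 (−0.36) lower. Mrps21, Mrps6 and Mrpl34 had been lower in SR9011 than in vehicle libraries. The interaction uses those same libraries, so the 2 results are not independent. With CLK8, 0 were called higher and 2 lower, beside 4.58% and 3.39% of all genes, and 11 had an unadjusted p under 0.05 in limma. The median CLK8 interaction was −0.1 for the 78 and −0.016 for all genes. The 2 called were Mrpl13 (−0.52 ± 0.078, limma adjusted p = 0.000107), which stood at 117, 109 and 116 FPKM in CLK8+TGFb and 169, 170 and 161 FPKM in CLK8 libraries, and Mrpl42 (−0.27). Across the 78 genes the TGFb difference with CLK8 and the one without it, which share no library, had a Spearman rho of 0.84; it was 0.35 for SB431542 and 0.05 for SR9011, as descriptions across genes.

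**Figure D4:**
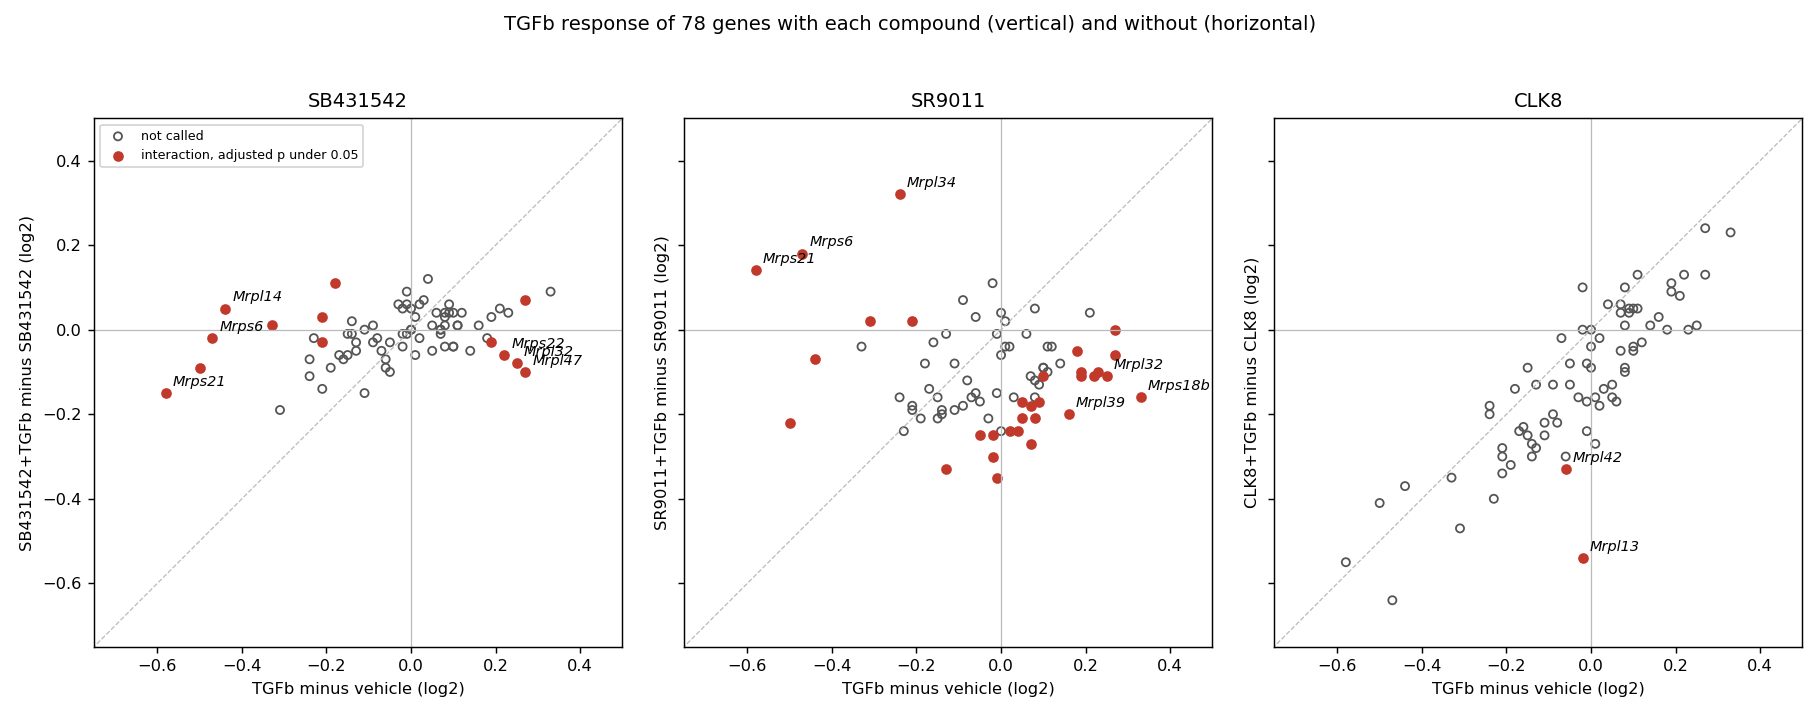
TGFb difference of the 78 genes in the presence of SB431542, SR9011 or CLK8 (vertical axes, log2 of FPKM + 1) and without compound (horizontal axes, same unit); the dashed line marks equal values. Filled points are the 13, 31 and 2 genes with a called interaction. With CLK8 the order of the genes is much the same (rho 0.84) but the points lie lower, with a median of −0.129 with CLK8 and −0.005 without it; with SB431542 they lie near 0 on the vertical axis, and with SR9011 rho is 0.05.

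Genes around the mitochondrial ribosome did not all follow it. Of 74 nuclear subunits of the respiratory chain and ATP synthase, whose mitochondrial partners this ribosome makes, TGFb raised 3 and lowered 44 (59.5%, beside 34.4% of all genes; median −0.186), led by Sdhc (−0.41) and Uqcrh (−0.55). TPM gave 8 and 31 and quantile normalization 6 and 31. In SB431542+TGFb against TGFb, 39 were higher (52.7%, beside 38.3% of all genes) and 3 lower. The 5 mitoribosome proteins outside the Mrpl and Mrps names gave 2 higher and 0 lower with TGFb, namely Ptcd3 (0.23) and Dap3 (0.11). Assembly factors, which build the ribosome, gave 7 higher (28%) and 5 lower (20%) of 25 with TGFb. Of all genes, 20.5% were higher and 34.4% lower in that comparison. The GTPase Noa1 (0.54) and the rRNA methyltransferase Nsun4 (0.44) rose and Mpv17l2 fell by 0.38. With SR9011, where 40.7% of all genes were higher, 17 of 25 assembly factors were higher (68%) and 2 lower (15 and 3 with TPM, 15 and 2 with quantile normalization), among them Mrm1 (0.56), Fastkd2 (0.54) and Gtpbp10 (0.47). Translation factors gave 9 higher and 1 lower of 14 with SR9011, with the elongation factors Gfm1 (0.50) and Tsfm (0.46). The RNA-stability factor Lrpprc was 0.92 higher with SR9011, and the chaperones and proteases Hspa9 (1.35), Dnaja3 (1.09) and Lonp1 (1.03) were over 2-fold higher there. Of 14 chaperones and proteases 8 were higher and 1 lower with SR9011. Without each SR9011 library in turn, the number higher was 15 to 17 for assembly factors, 8 to 10 for translation factors and 8 to 9 for chaperones and proteases.

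Cytosolic ribosomal protein genes, the counterpart of the module in the other translation system, rose with SR9011 in 70 of 80 and fell in 1 (median 0.398, beside 0.063 for the 78 members), and with SR9011+TGFb against TGFb in 69 and fell in 2 (0.397, beside −0.043). Rpl5 was higher by 0.72 and Rpl30 by 0.84 with SR9011. The 70 genes higher with SR9011 are 87.5%, beside 40.7% of all genes, and the number was 67 to 75 without each SR9011 library in turn. TPM gave 69 and 2 for SR9011 against vehicle, and quantile normalization 51 and 5. With CLK8 3 cytosolic genes were higher (3.8%) and 14 lower (17.5%), beside 30.3% higher and 13.6% lower of all genes. Quantile normalization gave 18 and 12 for the cytosolic genes. Of the mitochondrial genes 22 were higher with CLK8 (28.2%), near the share of all genes. Rpsa fell by 1.07 with CLK8. Of 10 tested regulators of nuclear genes for mitochondria, TGFb raised 4 (40%) and lowered 1 (10%), beside 20.5% and 34.4% of all genes. Myc rose by 0.91, Atf4 by 0.69 and Gabpb1, a subunit of GABP, by 0.30. In SB431542+TGFb against TGFb, Myc stood at −0.99, Atf4 at −0.74 and Gabpb1 at −0.36. SR9011 raised Atf4 (0.97) and Atf5 (0.70), both factors of the stress response to faulty mitochondria, and lowered Gabpb1 (−0.25). CLK8 lowered Esrra (−0.30), Gabpb1 (−0.17) and Myc (−0.39).

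**Figure D5:**
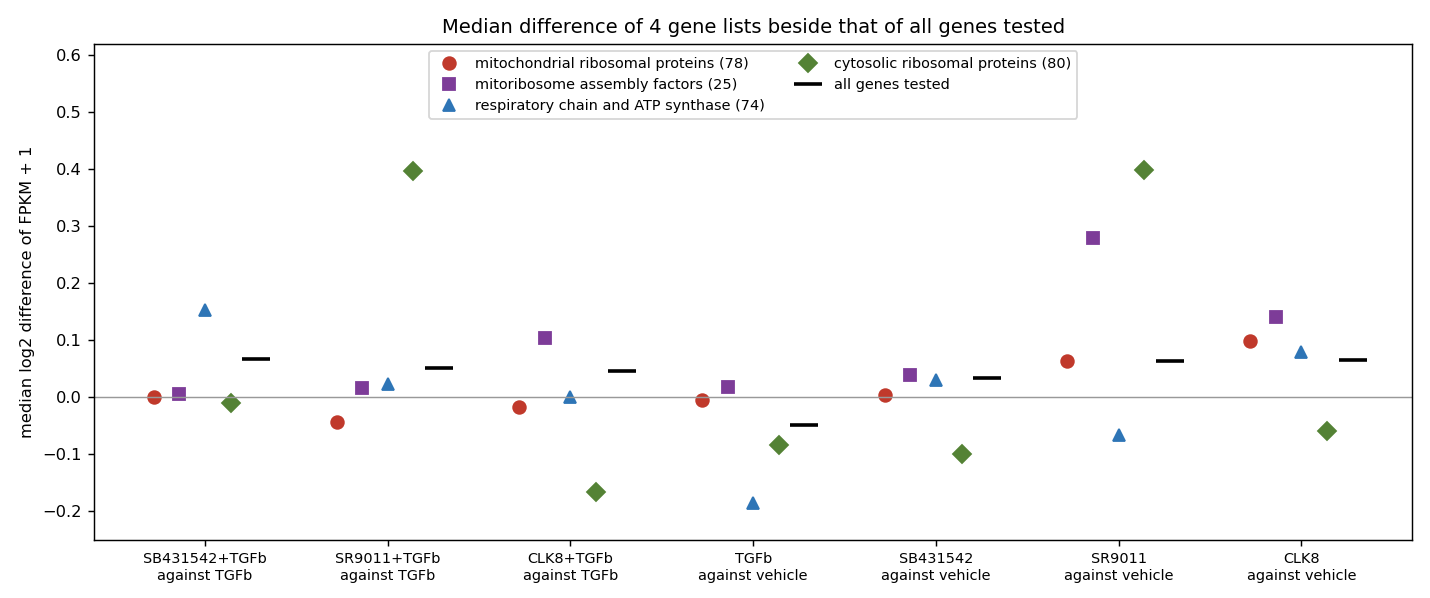
Median log2 difference of FPKM + 1 (vertical axis) of 4 gene lists and of all genes tested (black bars) in the 7 comparisons (horizontal axis). The mitochondrial ribosomal protein genes stay between −0.043 and 0.099, while the cytosolic ones stand at 0.398 and 0.397 in the 2 comparisons with SR9011 and the respiratory chain at −0.186 with TGFb.

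Of the 78 genes, 23 start within 1000 bases of a protein-coding gene on the other strand, such as Mrps12 with Sars2, Mrpl49 with Fau, Mrpl32 with Psma2 and Mrpl36 with Ndufs6. With SR9011, where most calls fell, 17 of these 23 members were called, beside 69.1% of all genes in either direction, in 13 pairs both genes were called, and in 6 of the 13 they moved the same way. With TGFb, 7 were called, beside 54.9% of all genes, and the 3 pairs with both called all had the same sign.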

How the data were processed

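All 24 libraries were measured by RNA-seq, and the authors deposited FPKM values rounded to 2 decimals. HISAT2, Bowtie2, RSEM, DESeq2 and build mm10 are named in the submitters' processing notes; strand and read numbers were not stated in these sources, so depth is unknown and no counting interval is given. Of 16620 lines, 16 with repeated identifiers were left out, leaving 16604 genes. Genes reaching 1 FPKM in at least 3 libraries (11297) were analysed on log2(FPKM + 1), which understates changes of low genes, with limma 3.58.1 (R 4.3.3, trend and robust), 1 model over the 8 groups, 2-sided tests, Benjamini-Hochberg adjustment over all genes and a threshold of 0.05; the fit was tested on simulated data. The text names, per comparison, up to 5 called members with the largest difference in each direction (3 for interactions), plus members fixed by role. Alternatives were another filter, pseudocount, scaling or model, a replicate block, and each library left out. Members and lists were chosen with earlier results of these data known.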

Additional observations from a re-analysis of the deposited data

Results flagged for a closer look

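The TGFb difference of some members changed with a compound, by the interaction term in limma. With SB431542, 13 of 78 members had a called interaction, 8 higher (10.3%) and 5 lower (6.4%), beside 21.5% and 12.8% of all genes. Both shares were thus below those of all genes. Among the 13 were Mrpl14 (0.49), Mrps6 (0.45), Mrps21 (0.43), Mrpl47 (−0.37), Mrpl32 (−0.33) and Mrps22 (−0.28). With SR9011, 31 members did, 7 higher (9.0%) and 24 lower (30.8%), beside 16.6% and 15.3% of all genes. Among the 31 were Mrps21 (0.72), Mrps6 (0.65), Mrpl34 (0.56), Mrps18b (−0.49), Mrpl39 (−0.36) and Mrpl32 (−0.36). With CLK8, 2 members did (2.6%, both lower), Mrpl13 (−0.52) and Mrpl42 (−0.27), beside 4.58% higher and 3.39% lower of all genes. Whether the interactions of the 3 compounds differ from each other was not tested.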

How the results depend on the processing

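Over 33 alternatives (24 that leave out a library and 9 others), none of 93 differences of named members, those of the members fixed by role included, changed direction. Of 3069 such values 2942 stayed on their side of the threshold, 123 lost the call, in 15 of the 93, and 4 gained one (Mrpl12 and Mrps36 with TGFb). Most often lost were Mrpl48 with CLK8 (22), Mrpl58 in the SR9011 interaction (16) and with TGFb (12), Mrps12 and Mrps18a in the SR9011 interaction (12 each), Mrps12 in the SB431542 interaction (11) and Mrpl54 with SB431542 (10). For SB431542 against vehicle, the count of called members, 1 in the results above, was 0 without the filter, 2 with TPM, 0 without the variance trend and 2 with the replicate block; the cause was not tested. Leaving out 1 library gave 21 to 33 called members for TGFb against vehicle, 0 to 3 for SB431542, 42 to 48 for SR9011, 17 to 32 for CLK8, 23 to 34 for SB431542+TGFb against TGFb, 28 to 44 for SR9011+TGFb and 13 to 24 for CLK8+TGFb, and 6 to 15, 21 to 34 and 2 to 3 for the interactions of SB431542, SR9011 and CLK8. The SB431542 interaction count of 13 was 6 without vehicle replicate 3, 7 without SB431542 replicate 3, 8 without SB431542+TGFb replicate 3 and 8 without TGFb replicate 1. With the replicate number as a block, the counts higher and lower were 12 and 19 for TGFb, 1 and 1 for SB431542, 33 and 15 for SR9011 and 27 and 1 for CLK8 against vehicle, 18 and 16, 18 and 23, and 13 and 9 for SB431542+TGFb, SR9011+TGFb and CLK8+TGFb against TGFb, and 8 and 6, 7 and 26, and 0 and 3 for the interactions. Same-numbered libraries deviated together in all 3 pairs in 2 of 28 pairs of groups. Averaged over the members, replicate 1 lay below its group mean in SR9011+TGFb (−0.0163 log2 units). In each other group it lay above, by 0.00613 (TGFb) to 0.0985 (SR9011). Replicate 2 lay above its group mean in SR9011+TGFb (0.00117) and below it in each other group, from −0.0121 (vehicle) to −0.104 (SR9011). Replicate 3 lay on either side. Whether the replicate numbers pair the libraries is therefore not settled, and the main model did not use them. Read depth is unknown, which limits what can be said of low members.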
